A study of Mus musculus with 16 samples.

Results

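Granzymes and the proteins packed with them into cytotoxic granules were followed across regulatory T cells (Treg), a suppressive CD4 lineage defined by the factor Foxp3, and their conventional counterparts (Tconv), both sorted from mouse visceral adipose tissue (VAT). The genes were Gzma, Gzmb, Gzmk, Gzmm, Prf1, Nkg7, Fasl, Ctsw and Srgn, taken by symbol, and all 9 were found among the 19540 genes of the deposited table. The libraries fell into 4 groups: Treg KO (n = 4), Treg WT (n = 3), Tconv KO (n = 5) and Tconv WT (n = 4). KO stands for animals with Hpgd deleted in Treg, and WT for wild-type controls. Hpgd encodes the enzyme that inactivates prostaglandin E2. All mice were C57BL/6JRcc, aged 12 weeks, and the label for the line names a floxed Hpgd allele and Foxp3-YFP-Cre for all 16 samples alike. Genotype therefore rests on the sample titles, and whether the WT animals also carry these alleles cannot be read from the labels. The Cre is driven from Foxp3, so Tconv of KO animals are not themselves targeted. The series describes 5 deleted and 4 WT animals but ties no library to an animal, so p-values measure the spread between these libraries, which may be technical.

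Cytotoxic lymphocytes kill by releasing granules toward a target cell. Perforin opens the target's membrane, and granzymes, a family of serine proteases, enter and cleave proteins inside. Serglycin, the proteoglycan encoded by Srgn, holds granzymes and perforin in the granule, and Fas ligand on the cell surface is a separate route to the same end. These genes are best known from CD8 T cells and natural killer (NK) cells, but activated CD4 T cells, Treg among them, can also express some of them.

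The values are size-factor-scaled gene read counts plus 1, so a gene without reads stands at 1. Libraries held 3.39 to 9.26 M reads except Tconv KO 3, which held 56.7 M, and 3 reads correspond to a value between 1.38 and 7.09. As a check of the labels, Hpgd had 0 to 2 reads in each Treg KO library, against 79, 63 and 3 reads in the Treg WT libraries, so the library labelled Treg WT 3 read Hpgd close to the KO level. Foxp3 stood at 279 to 546 in Treg KO and at 292 to 616 in Treg WT libraries, against 1 to 5.00 in Tconv KO and 1 to 39.3 in Tconv WT libraries. Cd4 stood between 3859 and 7949 in every library, while the CD8 markers Cd8a and Cd8b1 summed to at most 427, in Tconv KO 3. Some libraries stood apart on sums of cell markers. Tconv WT 1 had a summed value of 17262 over 7 neutrophil markers, and Tconv WT 3 had 46534 over 2 haemoglobin genes. Type 2 markers such as Il1rl1 and Il5 summed to 3889 in Tconv KO 3, 2776 in Tconv WT 1 and 2569 in Tconv WT 3, against at most 242 in the other Tconv libraries, and to 1973 in Treg WT 2, against 11863 to 17819 in the other Treg libraries. Il1rl1 had the highest mean of the type 2 markers in each group. It averaged 11290 in Treg KO and 9716 in Treg WT, against 609 in Tconv KO and 885 in Tconv WT libraries. The type 2 sum thus holds a gene high in Treg themselves and does not mark other cells alone. The 5 NK markers in the table summed to 532 in Tconv WT 4 and to 0 to 287 in the other libraries. The part of other cells in the results below was not tested. In bulk samples fewer cells of a type and less RNA per cell cannot be told apart.

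The genes lie on chromosomes 1, 7, 10, 13, 14 and 19 of the mouse build mm10, with positions from GENCODE M21. Gzma (chr13:113093825-113100981) and Gzmk (chr13:113171608-113225908) are neighbours on the minus strand, 70.6 kb apart with 0 other coding genes between them. Gzmb is at chr14:56258838-56262260 on the minus strand. Gzmm (chr10:79689020-79695261, plus strand), Prf1 (chr10:61297833-61304680, plus strand) and Srgn (chr10:62493833-62527451, minus strand) share a chromosome, and 1189 kb with 20 coding genes separate Prf1 from Srgn. Nkg7 is at chr7:43437073-43438249 on the plus strand, Fasl at chr1:161780689-161788495 and Ctsw at chr19:5465043-5468507, both on the minus strand. An exon of Ctsw overlaps one of Fibp by 9 bases on the other strand, and 1.35% of the 31-base words of Gzmb also occur in Gzmc, so a few reads of these genes could belong to their partners. No other exon overlap with an annotated gene was found among the 9.

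RefSeq promoters, running from 250 bases before to 50 bases after a start site on GRCm38.p6, were held for 8 of the 9 genes, with a second one for Gzmm and for Srgn; Ctsw had no entry. The promoters of 3 genes that were low in Treg (Gzmk, Nkg7, Fasl), of Prf1, of Gzmb, and of Srgn, which had its higher values in Treg, are shown because they carry the contrast described below. Capitals mark matches, on either strand, to 3 short motifs of factors that act in cytotoxic lymphocytes: TCACAC for T-box factors, TGTGGT for RUNX factors and GGAAGT for ETS factors.
Gzmk, chr13:113180916-113181215, minus strand: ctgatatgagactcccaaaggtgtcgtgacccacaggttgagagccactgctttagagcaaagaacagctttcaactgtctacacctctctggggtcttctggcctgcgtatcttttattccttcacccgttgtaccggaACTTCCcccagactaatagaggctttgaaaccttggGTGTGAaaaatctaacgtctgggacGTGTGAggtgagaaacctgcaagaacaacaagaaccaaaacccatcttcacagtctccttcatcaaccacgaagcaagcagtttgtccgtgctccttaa
Nkg7, chr7:43436888-43437187, plus strand: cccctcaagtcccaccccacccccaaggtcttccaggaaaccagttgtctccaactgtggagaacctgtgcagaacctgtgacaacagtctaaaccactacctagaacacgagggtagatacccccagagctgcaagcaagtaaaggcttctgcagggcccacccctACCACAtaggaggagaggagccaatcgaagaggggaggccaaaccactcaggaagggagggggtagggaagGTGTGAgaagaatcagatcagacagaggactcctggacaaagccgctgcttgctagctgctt
Fasl, chr1:161788446-161788745, minus strand: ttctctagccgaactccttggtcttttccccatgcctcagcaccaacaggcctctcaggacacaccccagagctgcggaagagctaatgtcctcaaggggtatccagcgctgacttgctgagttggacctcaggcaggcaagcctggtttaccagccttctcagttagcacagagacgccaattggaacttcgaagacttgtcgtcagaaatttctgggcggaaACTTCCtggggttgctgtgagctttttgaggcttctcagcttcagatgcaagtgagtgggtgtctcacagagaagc
Prf1, chr10:61297586-61297885, plus strand: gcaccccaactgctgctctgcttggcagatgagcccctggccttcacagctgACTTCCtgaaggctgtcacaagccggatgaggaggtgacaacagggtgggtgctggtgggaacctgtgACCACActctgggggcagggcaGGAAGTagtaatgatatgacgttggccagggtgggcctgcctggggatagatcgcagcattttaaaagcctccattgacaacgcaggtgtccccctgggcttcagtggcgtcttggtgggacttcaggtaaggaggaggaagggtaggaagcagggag
Gzmb, chr14:56262285-56262584, minus strand: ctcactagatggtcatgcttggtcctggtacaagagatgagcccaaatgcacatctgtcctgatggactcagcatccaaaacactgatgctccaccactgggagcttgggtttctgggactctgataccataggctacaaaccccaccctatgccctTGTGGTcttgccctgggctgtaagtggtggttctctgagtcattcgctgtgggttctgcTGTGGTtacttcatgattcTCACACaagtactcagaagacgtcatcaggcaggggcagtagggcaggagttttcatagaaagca
Srgn, chr10:62527396-62527695, minus strand: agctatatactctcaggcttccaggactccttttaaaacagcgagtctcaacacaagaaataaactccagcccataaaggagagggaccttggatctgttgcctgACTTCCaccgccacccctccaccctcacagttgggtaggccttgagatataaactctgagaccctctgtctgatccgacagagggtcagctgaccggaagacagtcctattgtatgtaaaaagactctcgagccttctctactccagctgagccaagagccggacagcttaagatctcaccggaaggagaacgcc
Taking the promoter nearest the GENCODE start of each of the 8 genes, the T-box motif was present in 3 (Gzmb, Gzmk, Nkg7), the RUNX motif in 5 (Gzma, Gzmb, Gzmm, Nkg7, Prf1) and the ETS motif in 4 (Fasl, Gzmk, Prf1, Srgn). Of all 32851 promoters in the table, 14.5% held the T-box motif, 16.8% the RUNX motif and 23.8% the ETS motif. No matches of different motifs overlapped in these promoters. The Gzmk promoter belongs to a start site inside the gene as GENCODE draws it.

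Treg of both genotypes had less granzyme K, Fas ligand, Nkg7 and cathepsin W transcript than Tconv of the same genotype, while serglycin ran the other way. Between Treg KO and Tconv KO, 5 of the 9 genes were lower and 1 was higher at an adjusted p under 0.05 (limma with Benjamini-Hochberg adjustment over 14319 genes). Over all genes, 2.65% were called lower and 4.16% higher in that comparison. Between Treg WT and Tconv WT, 4 of the 9 were lower and 0 higher (limma; 1 higher, Srgn, at an unadjusted p under 0.05, and 0 by voom), against 1.98% and 2.2% of all genes. The median log2 difference of the 9 genes was -3.27 in KO and -3.02 in WT, beside 0.04 and -0.0037 over all genes tested. With the 3 Tconv libraries high in type 2 markers left out (WT 1, WT 3 and KO 3), the counts were 6 lower, Gzma among them, and 1 higher in KO, and 4 lower and 0 higher in WT. Gzma reached a value of 10 in Tconv libraries alone, so its part in that KO count is a description only. In WT, 3 were lower without the library labelled Treg WT 3, and 5 were lower and 1 higher without Treg WT 2. With Gzma, unread in Treg, set at the bound given below, the KO median is -2.88, and without Gzma the medians of the other 8 are -3.18 in KO and -2.99 in WT. All differences are on the scale of log2(value + 1) and compare means of logs. Folds from them are not ratios of group means, and for low genes they depend on the added 1 and on unread libraries.

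Estimates for markers of NK cells did not all have the same sign between the cell types. In KO, Tyrobp averaged 9.69 ± 10.4 in Treg and 3.66 ± 4.24 in Tconv, and Fcer1g 17.4 ± 19.0 and 3.68 ± 5.98 (SD, n = 4 and 5). These low values gave log2 differences of 0.99 and 1.47 (limma, adjusted p = 0.735 and 0.596). In WT the differences of Tyrobp and Fcer1g were -1.07 and -3.10 (limma, adjusted p = 0.77 and 0.264). Klrb1c averaged 1.35 ± 0.71 in Treg KO and 39.3 ± 33.7 in Tconv KO libraries (SD, n = 4 and 5; log2 difference -3.28; limma, adjusted p = 0.13), and 1.29 ± 0.50 in Treg WT and 122 ± 158 in Tconv WT libraries (SD, n = 3 and 4; log2 difference -4.07; limma, adjusted p = 0.115). Of the 5 NK markers measured, 3 reached the filter and 0 passed in either genotype (limma; 1 in KO and 2 in WT at an unadjusted p under 0.05). Ncr1 was unread in all Treg WT and Tconv KO libraries. Their sum was 1.95 to 53.0 in Treg KO and 2.21 to 17.3 in Treg WT libraries, against 4.44 to 77.4 in Tconv KO and 0 to 532 in Tconv WT libraries. In Tconv KO 5 the NK and CD8 marker sums were the lowest of its group, 4.44 and 5.33. Gzmk stood there at 3198, Fasl at 1972, Nkg7 at 12448 and Ctsw at 1637. In Tconv WT 3, also the lowest of its group, the sums were 0 and 6.04. The same genes stood there at 1837, 1968, 7656 and 1713. Tconv WT 3 also stood apart on haemoglobin genes and type 2 markers, as given above. The part of NK and CD8 cells in these values was not tested.

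**Figure D1:**
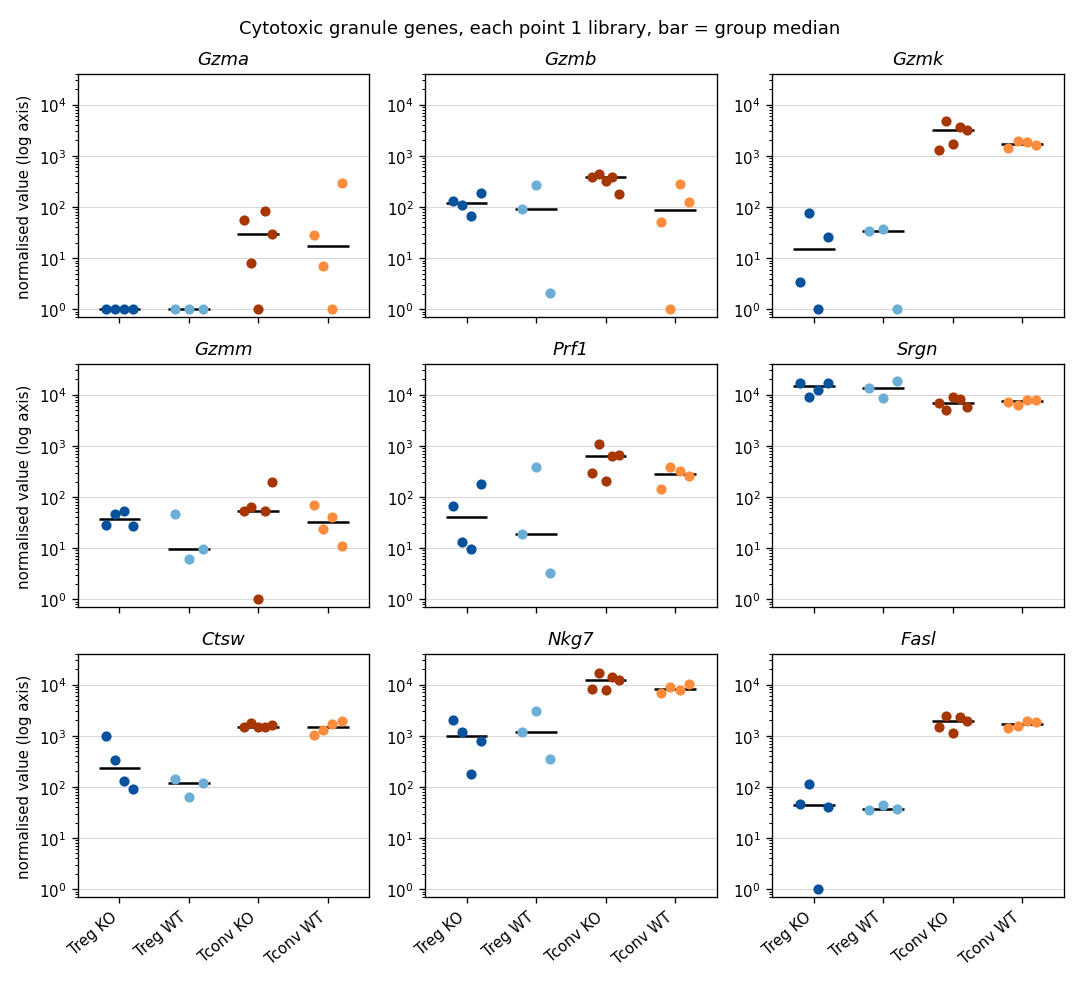
Normalised values of the 9 genes on a log axis, where each point is 1 library, the bar is the group median and 1 means no reads. Gzmk, Fasl, Nkg7 and Ctsw lie lower in every Treg library than in any Tconv library, Srgn tends to lie higher, and Gzmb and Gzmm overlap.

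Granzyme K, a granzyme with trypsin-like cleavage, was far more abundant in Tconv than in Treg. Gzmk stood at 3.41, 77.8, 1 and 26.3 in Treg KO libraries, against 1313, 4881, 1715, 3668 and 3198 in Tconv KO libraries. It stood at 33.9, 36.8 and 1 in Treg WT libraries, against 1416, 1931, 1837 and 1633 in Tconv WT libraries. The highest Treg library was thus under the lowest Tconv library by more than an order of magnitude. The log2 difference was -7.82 (SE 0.89) in KO, a 225-fold difference (limma, adjusted p = 1.3e-05), and -6.94 (SE 1.02) in WT, 123-fold (limma, adjusted p = 0.000357). Both folds exceed the ratios of the group means. Those means were 27.1 in Treg KO against 2955 in Tconv KO, and 23.9 in Treg WT against 1704 in Tconv WT libraries. With single libraries left out, the KO difference was -8.73 (without Treg KO 2) to -6.96 (without Treg KO 3, which had 0 Gzmk reads). The WT difference was -7.66 when Treg WT 2 was left out, -7.61 for Treg WT 1 and -5.54 for the library labelled Treg WT 3, which had 0 Gzmk reads (limma, adjusted p = 0.00259).

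Granzyme A, the neighbour of Gzmk and also trypsin-like, had 0 reads in each of the 7 Treg libraries. It stood at 55.7, 8.01, 1, 84.0 and 29.4 in Tconv KO libraries and at 27.9, 7.09, 1 and 291 in Tconv WT libraries, so 1 library of each Tconv group was also unread. Set against a floor of 3 reads per Treg library, the mean was at least 7.35-fold lower in Treg KO than in Tconv KO and at least 21.1-fold lower in Treg WT than in Tconv WT. These bounds rest on the highest Tconv libraries: without Tconv KO 4 the KO bound is 4.86-fold, and without Tconv WT 4 the WT bound is 3.08-fold. Gzma reached the filter on low values (10 in 3 libraries) through Tconv libraries alone, so its test is given as a description only. Neither comparison passed (limma, adjusted p = 0.12 in KO and 0.216 in WT). The unread Tconv KO library was the deepest, Tconv KO 3, without which the KO value was an adjusted p of 0.0334 (limma). The highest value, 291 in Tconv WT 4, came from the library with the highest sum of NK markers, in which Klrb1c stood at 347 and Ncr1 at 67.4.

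For granzyme B, which cleaves after aspartate and activates caspases, neither comparison of Treg with Tconv passed in the main fit. Gzmb stood at 130.0, 112, 66.1 and 189.8 in Treg KO libraries, against 379, 440.5, 318, 378 and 177 in Tconv KO libraries. It stood at 93.2, 265 and 2.10 in Treg WT libraries, against 51.7, 1, 277 and 123 in Tconv WT libraries. The groups overlapped in both genotypes. The log2 difference was -1.47 (95% interval -3.92 to 0.98; limma, adjusted p = 0.578) in KO and -0.03 (-2.82 to 2.76; limma, adjusted p = 0.999) in WT, so a change of several-fold in either direction is within the WT interval. When only the 9 KO libraries entered the fit, the KO difference passed (limma, adjusted p = 0.0209). Without the library labelled Treg WT 3 the WT difference was 1.86.

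Granzyme M, a granzyme best known from NK cells, was low everywhere. Gzmm stood at 28.7, 45.6, 53.4 and 27.3 in Treg KO libraries, against 52.1, 64.9, 1, 52.9 and 197 in Tconv KO libraries. It stood at 45.7, 6.23 and 9.82 in Treg WT libraries, against 68.2, 23.3, 41.3 and 11.1 in Tconv WT libraries. The groups overlapped in both genotypes, with log2 differences of 0.02 (95% interval -2.11 to 2.15) in KO and -0.98 (-3.41 to 1.44) in WT. Without Tconv KO 3, which had 0 reads of Gzmm at 56.7 M reads in all, the KO difference was -1.03.

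Per kb of exon, the summed level of these 4 granzymes was 81.0 to 168 in Treg KO and 6.76 to 213 in Treg WT libraries, against 1297 to 3870 in Tconv KO and 1127 to 1555 in Tconv WT libraries. The makeup of that sum differed as much as its size. Gzmk made up 0 to 34.0% of it in Treg KO and 0 to 20.0% in Treg WT libraries, against 72.8 to 90.8% in Tconv KO and 75.6 to 98.5% in Tconv WT libraries. Gzmb made up 47.4 to 81.4% in Treg KO and 11.4 to 86.3% in Treg WT libraries, against 4.74 to 20.3% in Tconv KO and 0 to 12.5% in Tconv WT libraries. The low end in Treg WT is the library labelled Treg WT 3, with 9 granzyme reads in all; without it the Gzmb share in Treg WT was 54.3 and 86.3%. Gzmb was thus the leading granzyme by length-corrected level in 6 of 7 Treg libraries, and Gzmk in all 9 Tconv libraries.

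**Figure D2:**
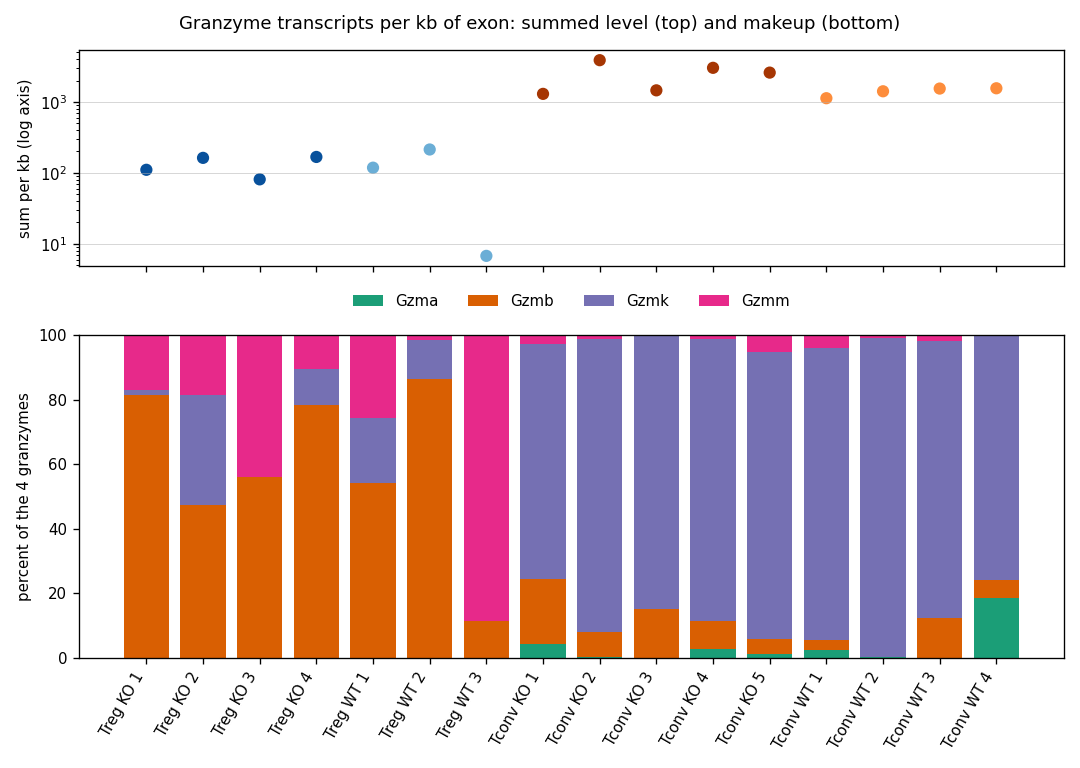
Summed level of Gzma, Gzmb, Gzmk and Gzmm per kb of exon in each library (top, log axis, coloured by group) and the percent of that sum from each gene (bottom). Gzmb leads in the Treg libraries except Treg WT 3, whose sum of 6.76 rests on 9 reads, and Gzmk makes up 72.8% or more in each Tconv library.

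Perforin, the pore-forming protein that lets granzymes reach the target's interior, was low in most Treg libraries. Prf1 stood at 67.3, 13.3, 9.50 and 177 in Treg KO libraries, against 288, 1094, 205, 636 and 665 in Tconv KO libraries. It stood at 19.3, 385 and 3.21 in Treg WT libraries, against 144, 387, 320.0 and 253 in Tconv WT libraries. The KO groups did not overlap and the WT groups did, through Treg WT 2. The log2 difference was -3.73 (SE 0.99; limma, adjusted p = 0.0245) in KO and -3.02 (SE 1.13; limma, adjusted p = 0.16) in WT. The KO call was lost when single libraries were left out: without Treg KO 2 or 3, or Tconv KO 2, 4 or 5, the adjusted p (limma) was between 0.0538 and 0.107, and with voom on recovered reads it was 0.134. Without Treg WT 2, the library with few type 2 marker reads, the WT difference was -4.82 and passed (limma, adjusted p = 0.00513). Without the library labelled Treg WT 3 it was -1.56.

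Serglycin, the granule proteoglycan, had the highest level of the 9 in Treg, also per kb of exon. Srgn stood at 16534, 9098, 12431 and 16556 in Treg KO libraries, against 6859, 4904, 9155, 8235 and 5601 in Tconv KO libraries. It stood at 13246, 8757 and 18114 in Treg WT libraries, against 7172, 6131, 7986 and 7681 in Tconv WT libraries. The WT groups did not overlap, and the KO groups overlapped only between Treg KO 2 and Tconv KO 3. Srgn was higher in Treg KO than in Tconv KO by 0.97 on the log2 scale (SE 0.22; limma, adjusted p = 0.00901), a 1.96-fold difference. The WT difference of 0.83 (SE 0.25) did not pass (limma, adjusted p = 0.0748). It passed under quantile scaling (limma, adjusted p = 0.0411) and without Treg WT 2 (limma, adjusted p = 0.0168).

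Cathepsin W, a cysteine protease of cytotoxic lymphocytes, was lower in Treg of both genotypes. Ctsw stood at 979.8, 334, 133 and 92.5 in Treg KO libraries, against 1504, 1795, 1454, 1498 and 1637 in Tconv KO libraries. It stood at 139.7, 64.7 and 118 in Treg WT libraries, against 1023, 1268, 1713 and 1946 in Tconv WT libraries. The Treg and Tconv groups did not overlap in either genotype, although Treg KO 1 came near. The log2 difference was -2.64 (SE 0.47; limma, adjusted p = 0.00113) in KO and -3.81 (SE 0.53; limma, adjusted p = 0.00021) in WT. Without Treg KO 1 the KO difference was -3.29.

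Nkg7, a granule membrane protein needed for efficient granule release, had the highest level of the 9 in Tconv, also per kb of exon. It stood at 2004, 1166, 175 and 780.4 in Treg KO libraries, against 8264, 16489, 7949, 13789 and 12448 in Tconv KO libraries. It stood at 1159, 2984 and 354 in Treg WT libraries, against 6754, 9019, 7656 and 10393 in Tconv WT libraries. The groups did not overlap in either genotype. The log2 difference was -3.91 (SE 0.55; limma, adjusted p = 0.000126) in KO and -2.96 (SE 0.63; limma, adjusted p = 0.00903) in WT. The WT difference was -3.70 without Treg WT 2, and the KO difference was -3.21 when Treg KO 3 was left out. Without the library labelled Treg WT 3, the lowest of its group, the WT difference was -2.16 and did not pass (limma, adjusted p = 0.0751).

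Fas ligand, the membrane protein that triggers death through Fas, was low in Treg. Fasl stood at 46.8, 113, 1 and 40.9 in Treg KO libraries, against 1504, 2458, 1128, 2278 and 1972 in Tconv KO libraries. It stood at 35.7, 44.6 and 36.3 in Treg WT libraries, against 1405, 1566, 1968 and 1824 in Tconv WT libraries. The highest Treg library was about an order of magnitude under the lowest Tconv library. The log2 difference was -6.11 (SE 0.72; limma, adjusted p = 1.98e-05) in KO, 69.1-fold, and -5.40 (SE 0.82; limma, adjusted p = 0.000558) in WT, 42.3-fold. In KO the fold exceeds the ratio of the group means, which were 50.5 in Treg KO and 1868 in Tconv KO libraries. The KO difference was -4.88 without Treg KO 3, which had 0 Fasl reads, and -6.82 without Treg KO 2.

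**Figure D3:**
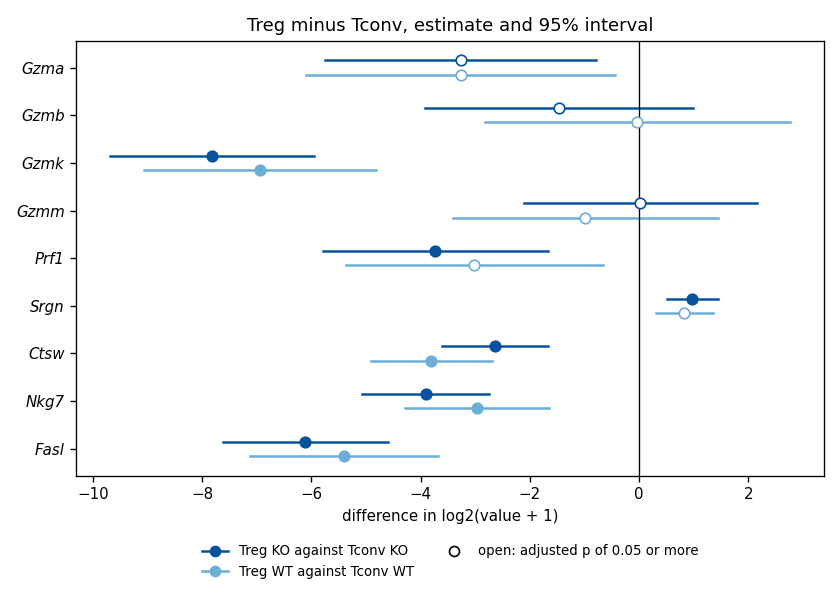
Difference of Treg minus Tconv in log2(value + 1) for each gene, in KO (dark) and WT (light), with 95% limma intervals; filled points have an adjusted p under 0.05. Gzmk and Fasl lie farthest below 0 in both genotypes and Srgn lies above it; the points for Gzma, which had no reads in Treg, depend on the 1 added before the log.

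Counted by separation rather than by the test, 5 of the 9 genes had all Treg KO libraries under all Tconv KO libraries and 0 the reverse, against 4.66% and 6% of all genes. In WT, 4 were separated downwards and 1, Srgn, upwards, against 6.1% and 5.87% of all genes. The difference between Treg and Tconv was not shown to depend on genotype for any of the 9: in the test of the deletion effect in Treg minus that in Tconv, 0 of 9 passed (limma; 0 of 9 at an unadjusted p under 0.05 and 0 by voom), as did 0% of all genes (748 at an unadjusted p under 0.05).

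The order of the genes by mean level per kb of exon differed between the cell types. In Treg, Srgn led with 6217 ± 1641 in KO (SD, n = 4) and 6089 ± 2131 in WT (SD, n = 3), followed by Nkg7 with 1127 ± 838 and 1639 ± 1475. The ranges of Srgn and Nkg7 did not overlap in either Treg group. In Tconv, Nkg7 led with 12896 ± 4008 in KO (SD, n = 5) and 9250 ± 1742 in WT (SD, n = 4), ahead of Srgn with 3165 ± 806 and 3298 ± 370. Gzmk came next in Tconv, with 2127 ± 1050 in KO and 1226 ± 165 in WT, then Fasl with 964 ± 283 and 872 ± 130.4, and Ctsw with 836 ± 73.9 and 788 ± 222. Fasl and Ctsw overlapped in both Tconv groups, and they exchange places in both when levels are taken per kb of the longest transcript. The lower ranks in Treg overlapped: the range of Fasl lay inside that of Gzmk in Treg WT, and that of Gzmm inside that of Fasl in Treg KO. In the ratio of Srgn to Nkg7 within a library, which does not depend on the scaling between libraries, log2 values were 2.96 to 6.14 in Treg KO and 1.55 to 5.67 in Treg WT, against -1.75 to 0.20 in Tconv KO and -0.56 to 0.09 in Tconv WT libraries.

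As a share of all reads, the 9 genes took 0.149 to 0.236% in Treg KO and 0.175 to 0.223% in Treg WT libraries, against 0.282 to 0.445% in Tconv KO and 0.243 to 0.334% in Tconv WT libraries. Without Srgn, the share was 0.0052 to 0.0387% in Treg KO and 0.0062 to 0.0529% in Treg WT libraries, against 0.178 to 0.377% in Tconv KO and 0.147 to 0.228% in Tconv WT libraries. Most of what Treg libraries read from these genes was therefore Srgn.

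Single libraries set some of the extremes. Among the 7 Treg libraries, Treg WT 2 was highest in 3 genes (Gzmb, Prf1 and Nkg7) and lowest in 3 others (Gzmm, Ctsw and Srgn); it is also the Treg library with the lowest type 2 marker sum and, at 22321, the lowest sum of Treg markers. Among the 9 Tconv libraries, Tconv KO 2 was highest in 5 genes (Gzmb, Gzmk, Prf1, Nkg7 and Fasl) and lowest in Srgn. Its sums of NK markers and CD8 markers were 5.45 and 351, and whether these cells account for any of its values was not tested.

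Genes that work beside the 9 were described from lists of related genes, whose counts stand beside the shares of all genes given above (4.16% higher and 2.65% lower in KO, 2.2% and 1.98% in WT). The lists were chosen with earlier results of these data known, so their counts are a description only. The list with the most lower genes was that of cytotoxic lymphocyte partners, 10 chemokines, cytokines and receptors that such cells share. Of these, 9 were lower in Treg in each genotype and 0 higher. Its median log2 difference was -4.10 in KO and -4.06 in WT (-3.84 and -3.99 with unread genes at their bounds). Of these genes 4 (Xcl1, Klrd1, Klrk1 and Cd160) reached the filter on low values mainly through Tconv, with at most 1 Treg library at 10. The tests of these 4 are given as a description only. Of the other 6, 5 were lower in each genotype. The chemokine gene Xcl1 stood at 3.79 ± 4.62 in Treg KO and 406 ± 128 in Tconv KO libraries (SD, n = 4 and 5), and was unread in Treg WT, where its mean was at least 125-fold lower than the 487 of Tconv WT (72.2-fold without Tconv WT 4). Klrd1, which encodes the CD94 receptor chain, was unread in all 7 Treg libraries and averaged 43.2 in Tconv KO and 93.5 in Tconv WT libraries. Klrk1, encoding the NKG2D receptor, had log2 differences of -5.01 in KO (limma, adjusted p = 0.000534) and -7.64 in WT (limma, adjusted p = 5.35e-05). The chemokine Ccl5 had the highest values of the list, 3299 ± 2373 in Treg KO against 33050 ± 17204 in Tconv KO, and 3776 ± 4143 in Treg WT against 18184 ± 5148 in Tconv WT libraries. The member that did not pass was Crtam in KO and the chemokine Ccl4 in WT. The count of lower genes in WT rested on few libraries: it was 4 without Tconv WT 4, the library with the highest NK marker sum, 6 without Tconv WT 2, 5 without the library labelled Treg WT 3 and 5 by voom on recovered reads, while in KO it was 7 by voom and 8 to 9 when single libraries were left out.

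The transcription factors that drive cytotoxic programmes did not move as one group. Of 7 regulators in the table, 3 were lower and 1 higher in Treg KO against Tconv KO, and 1 lower and 1 higher in Treg WT against Tconv WT. Eomes, a T-box factor, was lower in both, with log2 differences of -7.01 in KO (limma, adjusted p = 5.92e-05) and -6.73 in WT (limma, adjusted p = 0.000727). Its means were 14.4 ± 16.02 in Treg KO against 1308 ± 807 in Tconv KO, and 16.4 ± 26.7 in Treg WT against 646 ± 248 in Tconv WT libraries. The related factor Tbx21 was lower in KO (-1.99; limma, adjusted p = 0.0382) and missed the threshold in WT (-1.98; limma, adjusted p = 0.0998), and Runx3 was lower in KO (-0.78; limma, adjusted p = 0.0369). Prdm1 was the one higher in WT (1.18; limma, adjusted p = 0.0191) and Id2, with the highest values of the list, the one higher in KO (1.45; limma, adjusted p = 0.0082). The list median was 0.11 in KO and -0.55 in WT. Of these calls, those of Tbx21 and Runx3 were among the first to go: the count of lower genes in KO was 1 without Treg KO 3 or without Tconv KO 1, 2, 4 or 5, and 1 by voom. The WT call of Prdm1 was lost under 6 of 26 alternatives and that of Eomes by voom (adjusted p = 0.158).

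Of the machinery that matures and moves granules, few genes passed in either direction. Of 10 genes for granule activation and lumen, 1 was higher and 1 lower in KO, and 1 was higher in WT. Cathepsin H, which can trim the granzyme B propeptide, was the higher one in both, at 1129 ± 145 in Treg KO against 41.6 ± 71.4 in Tconv KO, and 813 ± 222 in Treg WT against 12.5 ± 11.8 in Tconv WT libraries. Ctsc, the main protease that activates granzymes, did not pass, with log2 differences of -0.21 in KO and -0.26 in WT. Of 15 genes for granule transport and release, 2 were higher and 2 lower in KO, and 1 higher and 1 lower in WT, where 3 genes had all Treg libraries above all Tconv libraries and 1 had the reverse. Lyst, a regulator of lysosome size, was lower, with log2 differences of -2.39 in KO (limma, adjusted p = 6.43e-06) and -2.44 in WT (limma, adjusted p = 4.31e-05), and the fusion protein gene Stx11 was higher by 2.15 (limma, adjusted p = 0.000412) and 1.73 (limma, adjusted p = 0.0136; 0.0724 at the highest over the alternatives). The other calls in KO were Gnptab (lower), Rab27a (lower) and Sytl2 (higher), named here after their values were seen because the counts are small.

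Inhibitors and death receptors completed the lists. Of 6 serpins tested, 3 were lower and 1 higher in Treg in each genotype. In WT the counts were 1 and 0 without Treg WT 1, and 3 and 0 without the library labelled Treg WT 3. The WT call of Serpina3g, 1 of the 3 lower, was lost under 16 of 26 alternatives, voom among them. Those of Serpinb9 and Serpinb6a were lost under 2 and 3. Serpinb9, an inhibitor of granzyme B, was lower, with log2 differences of -1.62 in KO (limma, adjusted p = 0.00113) and -1.53 in WT (limma, adjusted p = 0.00904), while Serpinb6a was higher by 1.55 (limma, adjusted p = 0.00147) and 1.42 (limma, adjusted p = 0.0138). Serpina3f showed the largest difference of the 6, -4.36 in KO and -6.82 in WT. Of 7 genes of death receptor signalling, 1, Tnf, was lower in each genotype, with log2 differences of -1.24 and -1.40; Fas itself did not pass, with differences of 0.16 and 0.14. Of 4 other granzymes in the table, Gzmc alone reached the filter, at 1.77 ± 1.54 in Treg KO libraries and 20.9 ± 21.9 in Tconv KO libraries (SD, n = 4 and 5), and it was unread in Treg WT and Tconv WT.

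**Figure D4:**
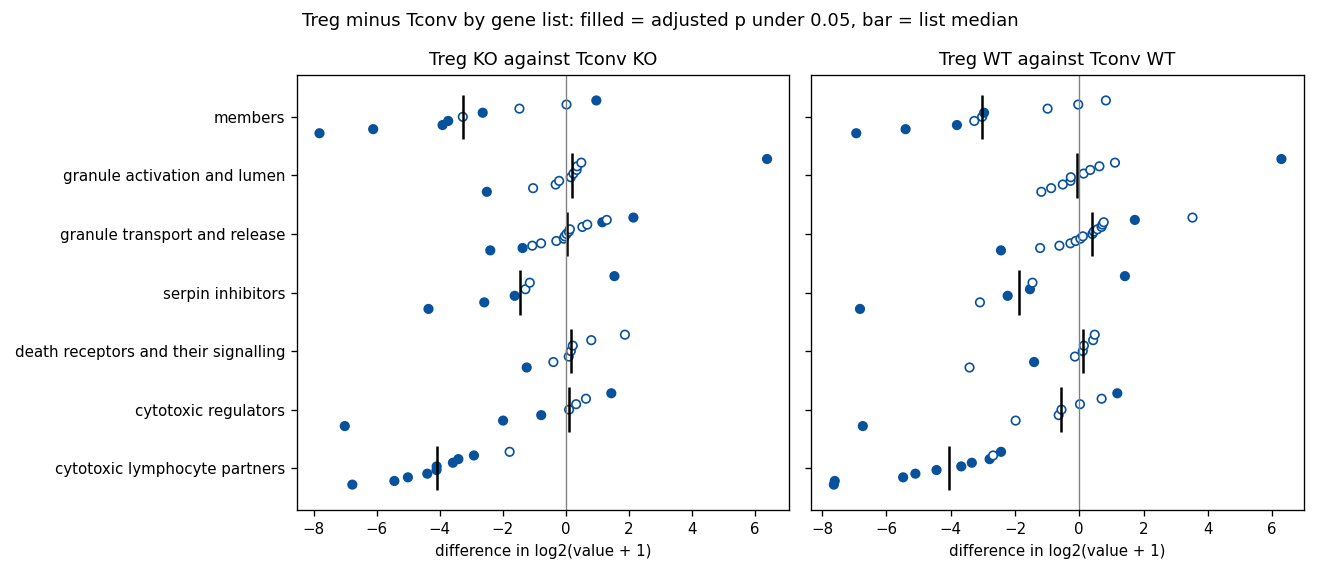
Difference of Treg minus Tconv in log2(value + 1) for each gene, by list, in KO (left) and WT (right), where each point is a gene, filled points have an adjusted p under 0.05 and the bar is the list median. The 9 granule genes and the cytotoxic lymphocyte partners lie mostly below 0, and the lists for granule activation and transport centre near 0.

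Deletion of Hpgd in Treg was set against WT within each cell type, the comparison the series was designed for. These comparisons use the same libraries as those above. In Treg, 0 of the 9 genes passed (limma; 1 at an unadjusted p under 0.05 and 0 by voom), against 0.021% of all genes (3 genes), and for 0 of the 9 were the Treg KO and Treg WT libraries separated, against 6.01% of all genes. The lowest unadjusted p was that of Ctsw, whose values of 979.8, 334, 133 and 92.5 in Treg KO overlap the 139.7, 64.7 and 118 of Treg WT. Its log2 difference of 1.29 had a 95% interval of 0.18 to 2.41 before adjustment and did not pass (limma, adjusted p = 0.741), and Treg KO 1 and 2 alone lay above the WT range. With single libraries left out, it was 0.64 (without Treg KO 1) to 1.77 (without Treg KO 4). Prf1 differed by 0.20 (95% interval -2.15 to 2.55), Nkg7 by -0.51 (-1.83 to 0.81), Gzmb by 1.46 (-1.33 to 4.25) and Srgn by 0.05 (-0.48 to 0.58). Without the library labelled Treg WT 3, the difference of Gzmb was -0.43 and that of Prf1 was -1.27. The Srgn interval was the narrowest of the 9. Gzma had no reads in either Treg group, so no fold is given. The median of the 9 differences was 0.05, beside 0.08 over all genes.

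In Tconv, 0 of the 9 passed (limma; 1 at an unadjusted p under 0.05 and 0 by voom), against 0% of all genes (781 at an unadjusted p under 0.05), and 0 were separated, against 1.67% of all genes. Of the 9 log2 differences, 8 were above 0, Gzma by no more than 0.0018, beside 51.7% of all genes, and their median was 0.30 beside 0.02 over all genes. Cell markers in the same comparison did not run one way. Cd8a averaged 87.6 ± 117 in Tconv KO and 3.42 ± 2.87 in Tconv WT libraries (SD, n = 5 and 4; log2 difference 3.15; limma, adjusted p = 0.858). Cd8b1 differed by 0.34 (limma, adjusted p = 0.996). Cd8a and Cd8b1 together summed to 5.33 to 427 in Tconv KO and 6.04 to 128 in Tconv WT libraries. The NK markers Klrb1c, Tyrobp and Fcer1g had log2 differences of -0.78, -1.36 and -2.87 and did not pass (limma). The part of CD8 and NK cells in the differences of the 9 genes was not tested. Gzmb had the largest, 2.90 (95% interval 0.45 to 5.35; limma, adjusted p = 0.863), with values of 177 to 440.5 in Tconv KO and 1 to 277 in Tconv WT libraries. Its lowest library was Tconv WT 2, the shallowest at 3.39 M reads, with 0 Gzmb reads. With single libraries left out, the difference was 1.41 to 3.79, the lowest without Tconv WT 2 and the highest without Tconv WT 3. Gzmk differed by 0.64 (-1.22 to 2.51), Prf1 by 0.91 (-1.16 to 2.97) and Nkg7 by 0.44 (-0.72 to 1.60); for all 3 the highest value was in Tconv KO 2. The signs of Gzma, Gzmm, Fasl, Ctsw and Srgn turned under some alternatives or with single libraries left out. With the 3 Tconv libraries high in type 2 markers left out, the differences were 4.38 for Gzmb, 0.73 for Gzmk and 0.35 for Nkg7, and 0 of 9 passed. None of the related lists held a call in either cell type.

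**Figure D5:**
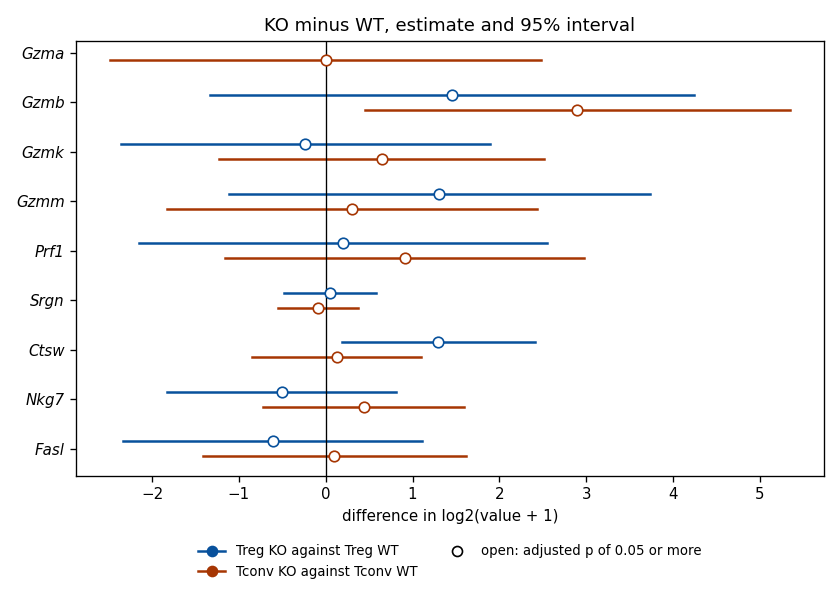
Difference of KO minus WT in log2(value + 1) for each gene, in Treg (blue) and Tconv (brown), with 95% limma intervals; all points are open because 0 of 9 passed in either. Gzma is shown for Tconv only because it had no reads in Treg, and the narrowest intervals are those of Srgn.

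Genes outside the 9 whose profile over the 16 libraries was most like each of them were found by the root mean square difference of log2 values, each gene centred on its own mean. The closest match of all was to Srgn, by D16Ertd472e at 0.22 and Gpx1 at 0.24. Nkg7 was nearest to Ccl5 at 0.43 and the interferon gamma gene Ifng at 0.60, and Prf1 to Btbd11 at 0.85 and Ccl5 at 0.95. Gzmk was nearest to Esm1 at 1.36, a gene that lies inside the annotated span of Gzmk on the other strand, and to Kcnk5 at 1.45, with the member Fasl between them at 1.38. Fasl was nearest to Themis at 1.05 and Klrb1f at 1.12, and Ctsw to Gtf2i and Eif2ak3, both at 0.73. The matches of Gzmm (Rad9b at 0.87, Fam120c at 0.93), Gzma (Cyp17a1 at 1.39, Mgst1 at 1.51) and Gzmb (Glmn at 1.34, Sh3bp2 at 1.39) are to genes of low level, for which counting noise takes part in the distance. Such noise also takes part for Gzmk and Fasl, whose matches were low in Treg. In Treg WT, Esm1 averaged 5.26, Kcnk5 11.2, Themis 9.10 and Klrb1f 1.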

How the data were processed

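One deposited table was analysed, with 19540 genes in 16 libraries. Per the labels' protocols, 10 ng of RNA from sorted cells was made into cDNA by SMART-seq2, a protocol without strand marking, and sequenced on a NextSeq 500 (bcl2fastq2 2.20). Tools listed in the submitters' processing notes, with no roles, are kallisto 0.44, DESeq2 (no version), CASAVA 1.8, Partek 6.6 and R 3.3.1, with the build mm10. For the counting annotation, strand use and sort markers: not given in the sources used here. Deposited values are a signal: read counts per gene over a library's size factor, with 1 added, as the steps between values show (100% of those under 1000 reads were whole to within 0.1 read). Read totals and the 3-read floor come from these steps. Floors express counting error alone; without molecular identifiers, reads are not independent molecules.

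The 14319 genes reaching 10 in 3 or more libraries, all 9 granule genes included, were tested as log2(value + 1) in a single limma 3.58.1 model (R 4.3.3) with a mean-variance trend; groups are small and share 1 estimate of the spread. Tests were 2-sided with Benjamini-Hochberg adjustment per comparison over all genes tested; passing means an adjusted p under 0.05. The model was run on simulated counts with large changes set in well-read genes and a fixed spread. That run does not speak to low genes with unread libraries or a wider spread. Levels between genes are values less 1 per kb of exon union (GENCODE M21). Promoters are from RefSeq. Named were all 9 genes and, of each related list, up to 3 with the smallest p in Treg WT against Tconv WT and up to 2 with the highest mean. The genes and lists were chosen with earlier results of these data known. Alternatives changed the pseudocount, filter, scaling, weights, samples in the fit and replicate block, and left libraries out; voom on recovered reads was added after the data were seen.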

Additional observations from a re-analysis of the deposited data

Results flagged for a closer look

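Granzyme M in Tconv KO 3 stood at 1, that is at 0 reads, although this library held 56.7 M reads, and the other Tconv KO libraries stood at 52.1 to 197. On the scale of log2(value + 1), its gap to the nearest of the others was 0.713 of the range of the group. This was barely above the 95% critical value of 0.71 of Dixon's test for 5 samples. On the unlogged values the gap is a smaller part of the range and lies under that limit. It was the one library that stood apart among 26 sets of values checked, and chance gives about 1 in 20. Gzma was also at 0 reads in that library.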

How the results depend on the processing

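The calls of Gzmk, Fasl and Ctsw as lower in Treg held in both genotypes under every alternative run, and that of Nkg7 in all but 1 alternative in WT. No member passed in a deletion comparison under any alternative. Genes called between Treg KO and Treg WT, 3 in all, were 1 with a filter at 50, 0 with only the groups compared in the fit, 1 with array quality weights, 0 with the replicate block, 0 by voom on recovered reads (650 at an unadjusted p under 0.05) and 0 to 17 with 1 library left out (0 when that labelled Treg WT 3 was left out, 17 when Treg WT 1 was). Between Treg WT and Tconv WT, 599 were called: 341 with only the groups compared, 288 by voom and 338 to 664 with 1 library left out, the lowest when that labelled Treg WT 3 was left out. For the deletion effect in Treg minus that in Tconv, 0 to 2 were called with 1 library left out. Members higher in Treg WT than in Tconv WT numbered 1, Srgn, under quantile scaling and with the replicate block, and 0 to 1 with 1 library left out; other counts of members stayed within 1.5 times.

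The replicate numbers were not taken to pair the libraries. The 21 same-number pairs had correlations of deviations of -0.037 to 0.079, 0 of them over 0.1, beside -0.074 to 0.075 in pairs of other numbers. A limit of 0.1 thus tells the kinds of pair not apart. Of 16 libraries, 11 correlated best with their own number, a hint of pairing from the data only. With the replicate block, Srgn in Treg WT against Tconv WT passed (0.90; limma, adjusted p = 0.00559) and no other call of a member changed.

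Signs turned only in differences that had not passed. In Treg KO against Treg WT, Prf1 was -0.078 with 10 added before the log, -0.27 under quantile scaling and -0.11 with the block, and Srgn was -0.043 under quantile scaling and -0.019 with the block. With 1 library left out the ranges there were -0.43 to 2.78 for Gzmb, -1.63 to 0.62 for Gzmk, -1.27 to 1.99 for Prf1, -1.30 to 0.23 for Nkg7, -1.32 to 0.62 for Fasl and -0.22 to 0.30 for Srgn. In Tconv KO against Tconv WT, Gzma was -0.15 with 10 added, -0.16 with the block, -2.42 by voom and -0.52 with the 3 Tconv libraries high in type 2 markers left out (WT 1, WT 3, KO 3); Gzmm was -0.30 with the block and -3.54 by voom, and Fasl -0.018 by voom. With 1 library left out, Gzma was -1.09 to 1.31, Gzmm -0.30 to 1.36, Fasl -0.013 to 0.27, Ctsw -0.040 to 0.27 and Srgn -0.20 to 0.026. In the difference between these effects, Gzmm was -0.88 without the 3 Tconv libraries, Prf1 0.019 with quality weights and Srgn -0.028 under quantile scaling, and the ranges were -3.33 to 0.043 for Gzmb, -0.049 to 1.81 for Gzmm, -2.17 to 1.09 for Prf1, -1.42 to 0.52 for Fasl and -0.13 to 0.39 for Srgn. In Treg WT against Tconv WT, Gzmb was 0.037 with nothing added, 0.17 under quantile scaling, 0.21 with quality weights, 0.22 with the block, 1.44 without the 3 Tconv libraries and -1.51 to 1.86 with 1 left out. In Treg KO against Tconv KO, Gzmm was -0.29 with 10 added, -0.14 under quantile scaling, -0.37 with weights, -1.03 without the 3 Tconv libraries and -1.03 to 0.62 with 1 left out. The cause of these changes was not tested. Depth limits the low genes: 3 reads correspond to a value between 1.38 and 7.09, Gzma had 0 reads in Treg, and Gzmm had 6 reads in Treg WT 2 and 8 in that labelled Treg WT 3. Gzma could not be fitted with only the WT groups, where it missed the filter, and the planned count test was not run because the deposited values carry an added 1.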
